A study of Mus musculus with 4 samples.

Results

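The 10 genes described here belong to the circadian clock and its direct output. They were read in hearts of mice given a viral vector carrying Tbx6 or phosphate-buffered saline (PBS) as newborns. They were taken by name from the platform annotation, each had 1 probe set, and all 10 were found among the 19505 named genes of the array. The activator arm holds 3 of them (Arntl, Npas2 and Clock) and the repressor and output arm holds 7 (Nr1d1, Nr1d2, Dbp, Tef, Ciart, Per2 and Per3).

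The clock is a loop of transcription that runs in nearly every cell with a period of about a day. ARNTL (also called BMAL1) pairs with CLOCK or its relative NPAS2 and binds E-box motifs, which switches on the Per and Cry genes, the nuclear receptor genes Nr1d1 and Nr1d2 (REV-ERB alpha and beta), Ciart and Dbp. The PER and CRY proteins then block the activators, and the REV-ERB receptors repress Arntl, Npas2 and Clock, so that in adult tissues the activator transcripts peak when those of the output arm are low. In heart muscle the clock is known for its hold on substrate use, potassium channels and growth.

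Deposited values are on the log2 scale throughout, and a pair of values for a day is given in the order PBS, Tbx6. The study used hearts of ICR (Jcl:ICR) mice, an outbred stock. Pups received the Tbx6 vector or PBS on postnatal day 1, and hearts were collected 7 or 30 days later. There were 4 groups with 1 array each, namely PBS at day 7, Tbx6 at day 7, PBS at day 30 and Tbx6 at day 30. The labels give an injection under the dorsal skin in one field and an introduction into the heart in others. As PBS served as the control, the vector itself differs between the groups as well as Tbx6. The labels do not give the promoter of the vector, the number of hearts behind each RNA sample, the sex of the animals, the lighting or the hour at which each heart was taken. Hearts of day 7 and day 30 differ in age, and age and hour of collection cannot be told apart between them.

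Several clock factors bind short DNA motifs, and each stretch below holds a match to such a motif. The match found for Clock is not printed. RefSeq windows of 250 bases before to 50 after each start (build GRCm38.p6, 32851 windows of 27025 genes) were matched by symbol to 9 of the 10 genes, with 13 windows in all, and Per2 was the gene not matched. Both strands were searched for the E-box CACGTG, its variant CACGTT, the D-box TTATGTAA or TTACGTAA (bound by DBP, TEF and HLF) and the core AGGTCA of the site shared by REV-ERB and ROR receptors. Matches in these windows did not overlap each other. Capitals mark the motif, and every sequence is on the gene's own strand.
Ciart, chr3:95882229-95882358, minus strand, 130 to 1 bases before the start: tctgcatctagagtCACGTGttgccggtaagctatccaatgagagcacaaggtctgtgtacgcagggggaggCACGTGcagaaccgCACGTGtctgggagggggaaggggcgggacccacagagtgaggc
Tef, start 1, chr15:81802528-81802567, plus strand: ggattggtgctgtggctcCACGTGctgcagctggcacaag
Tef, start 2, chr15:81811258-81811297, plus strand: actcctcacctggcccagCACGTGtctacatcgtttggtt
Nr1d1, chr11:98775386-98775425, minus strand: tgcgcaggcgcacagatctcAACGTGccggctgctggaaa
Per3, chr4:151044805-151044880, minus strand: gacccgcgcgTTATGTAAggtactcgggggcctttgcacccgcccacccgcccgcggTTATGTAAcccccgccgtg
Nr1d2, chr14:18239164-18239203, minus strand: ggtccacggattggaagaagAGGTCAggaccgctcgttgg
Arntl, start 2, chr7:113207531-113207556, plus strand, just after the start: aggcagaaagtAGGTCAgggacggag

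The Ciart window held 3 E-boxes, which begin 116, 58 and 44 bases before the start. At least 1 E-box was present in 7.15% of all windows and at least 3 in 0.0883%. Each of the Tef windows held 1 E-box, and Nr1d1 held the variant CACGTT (present in 4.68% of windows) on the opposite strand, so that it reads AACGTG above. Per3 held 2 copies of the D-box TTATGTAA, 205 and 158 bases before the start, where 1.06% of windows held at least 1 D-box and 0.0244% at least 2. The receptor core AGGTCA was found in windows of Arntl, Clock and Nr1d2, and in 16.3% of all windows. For Clock it lay in 1 of 3 windows, and for Arntl in 1 of 2. The windows of Dbp and Npas2 held none of these letters. A match describes the sequence and is no evidence that a factor is bound there.

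Between day 7 and day 30 the 2 arms, as made up of the genes listed here, moved in opposite directions. Cry1, Cry2 and Per1, repressors of the loop outside these arms, were not past the test between days, as given below. All 3 activators fell. Of the 7 repressor and output genes, 6 rose and Tef was not tested because its mean was below the expression filter. The changes were seen under PBS and under Tbx6 separately, and for each of the 10 genes the arrays of the 2 days did not overlap. These calls come from a linear model with injection and day as terms, fitted with limma to the upper 9753 genes by mean level. They rest on 2 arrays per day and 1 residual degree of freedom. By this test 14.2% of all genes were called higher at day 30 and 12.1% lower, 26.3% in all, against 9 of the 9 clock genes tested. The 10 genes were chosen with earlier results of these data known. Their counts beside the shares of all genes are therefore a description and no test of enrichment. Days did not overlap for 32.7% of all genes with day 30 higher and for 33.5% with day 30 lower, so the absence of overlap is common in these data. Arntl and Ciart reached the filter through the day on which they were high. Without the filter all 10 genes were tested and called, against 11.4% of all 19505 genes, although every Tef reading was at background.

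**Figure D1:**
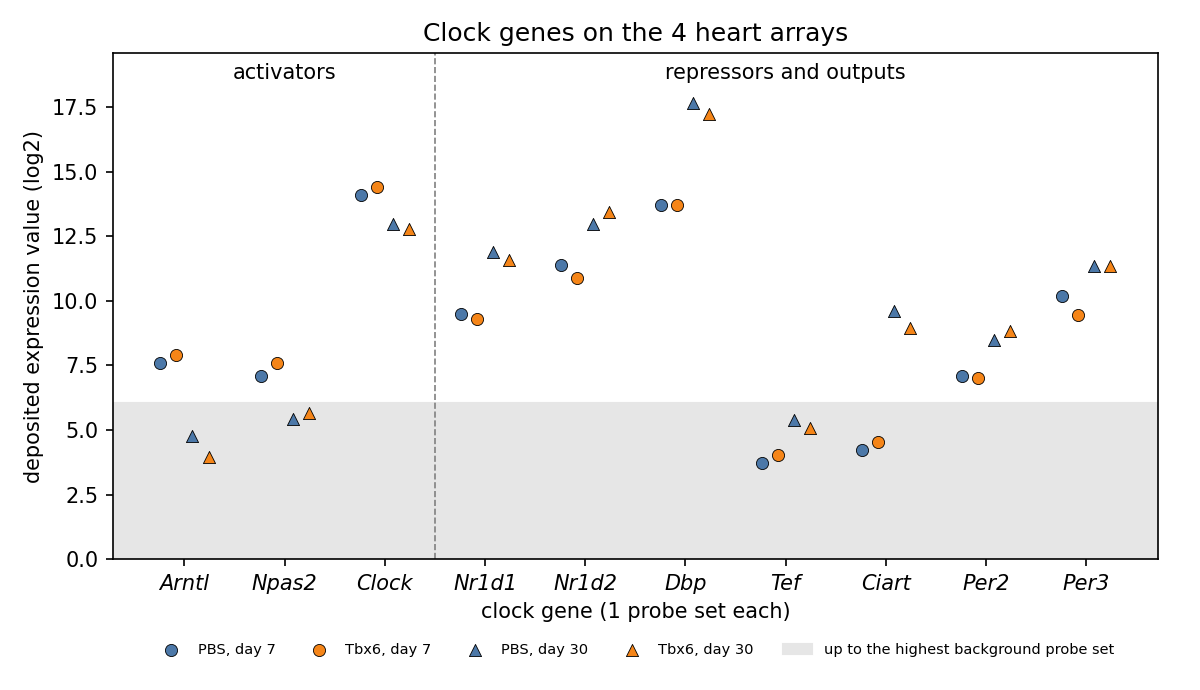
Deposited log2 value of each clock gene (horizontal axis) on the 4 arrays, with circles for day 7, triangles for day 30, blue for PBS and orange for Tbx6. Activators stand lower at day 30 and the other genes higher; the grey band reaches to 6.05, the highest background probe set of any array.

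Among the activators, Arntl encodes the partner without which the loop does not turn. Its log2 values were 7.58 and 7.89 at day 7 and 4.77 and 3.96 at day 30. Both arrays of day 7 were above background and both of day 30 were at background, meaning at or below the highest of the 23 background probe sets of the array. With the day 30 readings raised to that level, the change of Arntl was at least -1.80, or 3.49-fold lower (limma, Benjamini-Hochberg adjusted p of 0.000229 for the values as deposited).

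Npas2, which can stand in for CLOCK as the partner of ARNTL, read 7.09 and 7.59 at day 7 and 5.44 and 5.66 at day 30. It had the same shape, with day 7 above background and day 30 at background. Its change was at least -1.41, or 2.66-fold lower (adjusted p of 0.0014 by limma). Clock itself was above background on every array, at 14.11 and 14.42 at day 7 and 12.97 and 12.80 at day 30. Its readings were high at day 7 and lower at day 30 without overlap. The change of -1.39 (SE 0.26, 2.61-fold, adjusted p of 0.0057 by limma) is the one activator change measured on both sides.

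The REV-ERB receptors are the repressors that act on the activator genes. Nr1d1 read 9.48 and 9.28 at day 7 and 11.88 and 11.57 at day 30. Both day 30 arrays were above both day 7 arrays, and the gene rose by 2.34 (SE 0.24, 5.08-fold, adjusted p of 0.000369 by limma). The 3' end of Nr1d1 overlaps that of Thra, the thyroid hormone receptor gene on the opposite strand, and the annotation used here does not say which part of Nr1d1 the probes cover. Thra, looked up after the values had been seen, changed in the other direction, by -1.03 (SE 0.24, adjusted p of 0.0165 by limma). Its adjusted p was 0.0652, 0.0882 and 0.0615 without the Tbx6 array of day 7, the PBS array and the Tbx6 array of day 30.

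Nr1d2 stood at 11.38 and 10.88 at day 7 and at 12.98 and 13.44 at day 30. Day 30 was again the higher day on both arrays. Its rise was 2.08 (SE 0.29, 4.22-fold, adjusted p of 0.00155 by limma).

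Dbp and Tef belong to the PAR bZIP factors, which carry the rhythm from the E-box to D-box genes. Dbp read 13.73 and 13.71 at day 7 and 17.65 and 17.25 at day 30. The arrays of day 7 were nearly equal, and both arrays of day 30 were far above them. Dbp rose by 3.73 (SE 0.25, 13.3-fold, adjusted p of 5.97e-05 by limma), and it ranked 27 among the 9753 genes from the highest change down. All 4 readings of Tef (3.74 and 4.02 at day 7, 5.40 and 5.09 at day 30) were at background. They were higher at day 30, but no size can be given.

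Ciart, also known as Chrono, encodes a repressor that binds the ARNTL complex, and its window held the 3 E-boxes shown above. It was at background at day 7 (4.24 and 4.55) and read 9.60 and 8.97 at day 30. The gene passed from background on both arrays of day 7 to well above it on both arrays of day 30. Its rise was at least 3.50, or 11.3-fold (adjusted p of 3.55e-05 by limma with deposited readings).

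The Period genes encode the slow repressors of the loop. Per2 read 7.08 and 7.00 at day 7 and 8.47 and 8.85 at day 30. The days were apart on both arrays, and Per2 rose by 1.62 (SE 0.25, 3.07-fold, adjusted p of 0.00274 by limma). Per3, whose window held both D-boxes, read 10.21 and 9.44 at day 7 and 11.37 and 11.34 at day 30. Its arrays of day 30 were nearly equal and above those of day 7, which were apart from each other. It rose by 1.53 (SE 0.27, 2.89-fold, adjusted p of 0.00496 by limma).

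The change with day can be read under each of the 2 injections, which share no array. Both readings compare the same 2 days, and the hour of collection, which the labels do not give, could enter both. After PBS the activators differed by -2.80 (Arntl), -1.65 (Npas2) and -1.14 (Clock), and after Tbx6 by -3.93, -1.93 and -1.63, as deposited. In the other arm, the differences of the genes above background on all arrays were 3.92 and 3.55 for Dbp and 2.40 and 2.29 for Nr1d1, after PBS and Tbx6. They were 1.60 and 2.56 for Nr1d2, 1.39 and 1.85 for Per2, and 1.16 and 1.90 for Per3. All 10 genes had the same sign under both injections, which follows wherever the days do not overlap. Such days were seen for 32.7% of all genes with day 30 higher and for 33.5% with day 30 lower. The smaller of a gene's 2 day differences exceeded the larger of its 2 differences between injections in 10 of 10 genes, on the deposited values. These counts include Tef, at background on all arrays, and Arntl, Npas2 and Ciart, at background on both arrays of a day. The share of all genes for the last count was not computed, so that count cannot be called particular to the 10 genes. Differences of at least 2-fold under both injections, higher at day 30, were found for the 6 tested repressor and output genes, with Ciart at its bound, and for 7.12% of all genes. In the downward direction they were found for the 3 activators, with Arntl and Npas2 at their bounds, and for 5.41% of all genes. Both of these shares of all genes come from deposited values, with no readings raised to background.

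**Figure D2:**
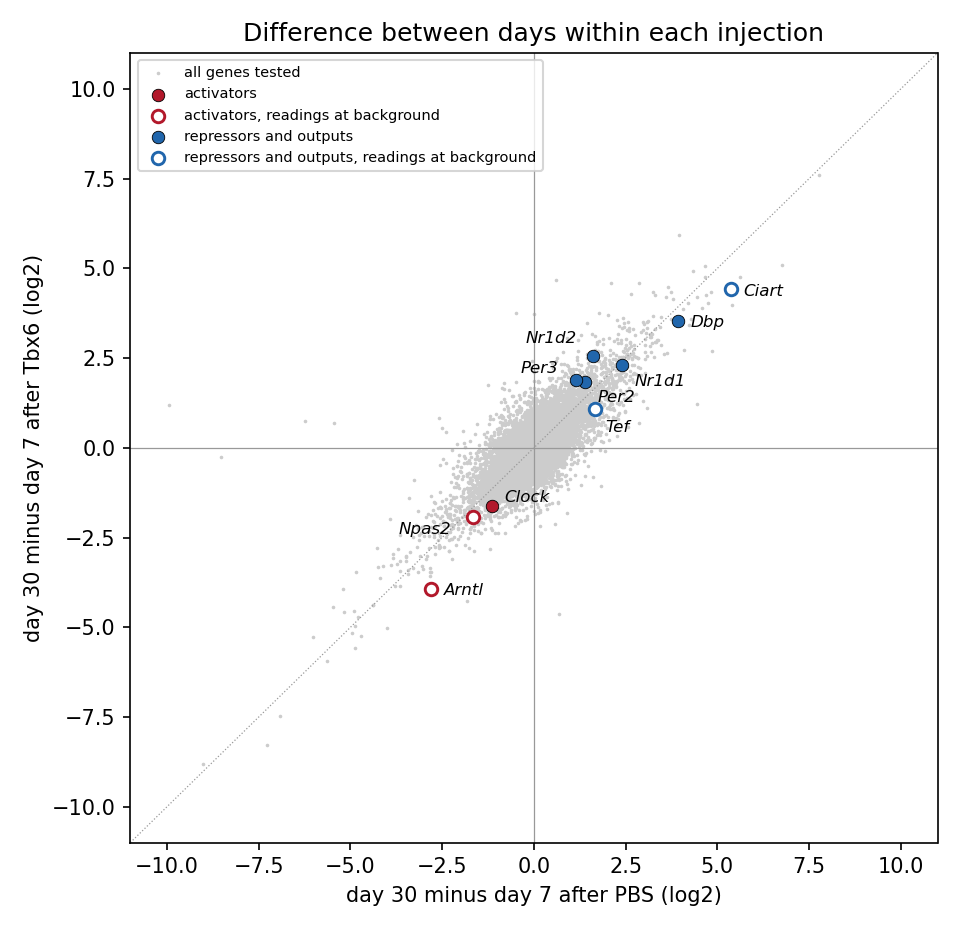
Log2 difference between day 30 and day 7 after PBS (horizontal axis) and after Tbx6 (vertical axis) for the 9753 genes tested (grey) and the 10 clock genes (red for activators, blue for repressors and outputs, open where a reading was at background). The 3 activators lie in the lower left and the 7 other genes in the upper right, with Ciart (5.36 and 4.41) farthest out.

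The opposition of the arms can be put into 1 value per array. Each gene was centred on its mean over the 4 arrays, and the mean of the output arm was taken from the mean of the activator arm. In log2 units this index was 2.09 and 2.60 at day 7 and -2.28 and -2.41 at day 30. The arrays of a day lay close together and the days lay far apart. Their opposite signs follow from centring each gene over these same 4 arrays once the days lie apart. With readings at background raised to the highest background probe set, the index was 1.53 and 2.14 at day 7 and -1.78 and -1.89 at day 30. The median change was -1.79 over the 3 activators and 2.08 over the 7 other genes, beside -0.02 over all genes tested. With readings at background raised, these medians were -1.41, 2.08 and 0.05. As the genes were grouped with such results known, no test is given for the index.

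Tbx6 was then compared with PBS within each day. At day 7 the 3 activators differed by 0.31 (Arntl), 0.50 (Npas2) and 0.31 (Clock), all below 1.5-fold. Per3 was the 1 gene of the 10 past 1.5-fold at day 7, at -0.77 (1.70-fold lower after Tbx6), where 15.6% of all genes were past it. At day 30 the differences of Arntl (-0.81) and Ciart (-0.64) were past 1.5-fold, 2 of the 10, where the share of all genes was 13.2%. Both Arntl readings of that day were at background, so only the 1.55-fold lower Ciart was measured. These shares are close to those of all genes.

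Nr1d2 differed by -0.51 at day 7 and 0.46 at day 30, and Per2 by -0.08 and 0.38. For Clock the values were 0.31 and -0.17, for Dbp -0.03 and -0.40, and for Nr1d1 -0.20 and -0.30. Of the 6 genes measured above background on all arrays, 3 (Clock, Nr1d2 and Per2) had opposite signs on the 2 days and 3 the same sign. For injection, limma's additive model called 0 of the 9 tested genes, as it did 0% of all genes. An unadjusted p under 0.05 was reached by 0 of the 9 and by 4.32% of all genes. The injection estimates ran from -0.40 (SE 0.27, Per3) to 0.36 (SE 0.25, Npas2), and the lowest unadjusted p was 0.18 by limma. With 1 array per group, differences of the size seen here cannot be separated from the spread between hearts.

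**Figure D3:**
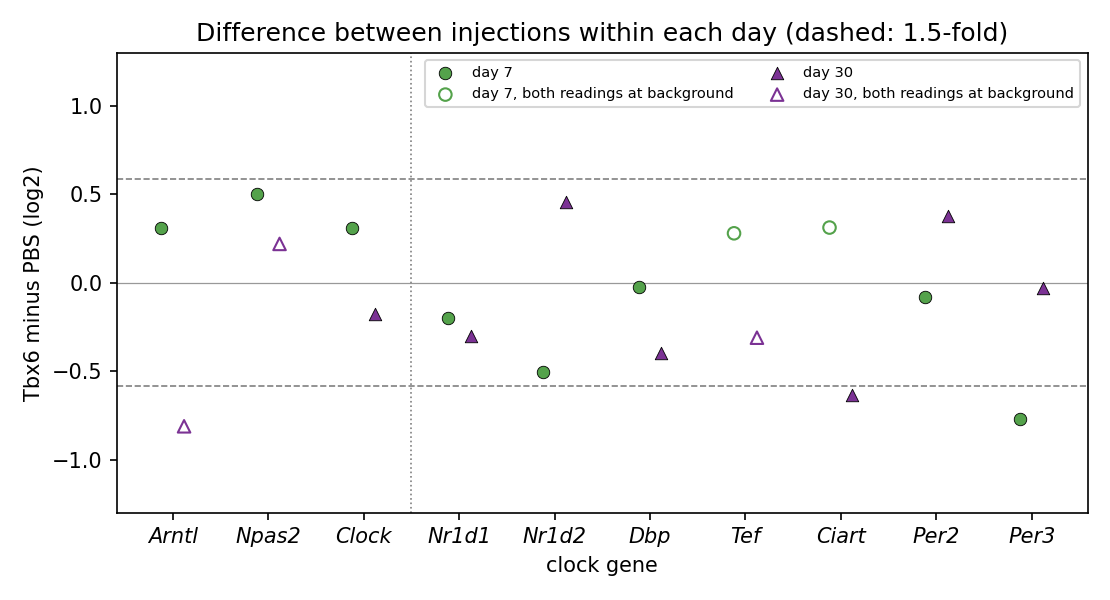
Log2 difference between Tbx6 and PBS for each clock gene at day 7 (green circles) and day 30 (purple triangles), with open symbols where both readings were at background and dashed lines at 1.5-fold. Values scatter on both sides of 0, and of the measured ones Per3 at day 7 (-0.77) and Ciart at day 30 (-0.64) lie past a dashed line.

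Other parts of the clock machinery did not all move with the 10 genes. Of 20 further clock genes listed by name, 18 were measured and 14 tested. Between days 4 of these were called higher at day 30 (Usp2, Bhlhe41, Bhlhe40 and Hlf), 2 lower (Nfil3 and Fbxw11), and 8 were not called, where 14.2% of all genes were called higher and 12.1% lower. The median change was -0.04 over the 14 tested. Of the others measured, Rorb, Arntl2, Fbxl21 and Timeless were at background on all arrays.

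The cryptochromes, the strongest repressors of the loop, were among those not called. Cry1 read 7.08 and 7.37 at day 7 and 6.78 and 7.22 at day 30, and Cry2 9.98 and 10.33 at day 7 and 10.08 and 10.50 at day 30. Their days overlapped, with changes of -0.22 (SE 0.24, adjusted p of 0.537 by limma) and 0.13 (SE 0.24, adjusted p of 0.723 by limma). Rora, an activator of Arntl that competes with the REV-ERB receptors, changed by 0.39 (SE 0.28, adjusted p of 0.345 by limma), with 0.71 and 0.24 for its 2 further probe sets. Whether these genes differ from the 10 in their change was not tested.

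Per1, the third Period gene and an acute target of glucocorticoids and cyclic AMP, read 8.62 and 7.43 at day 7 and 8.39 and 9.00 at day 30. It was low on the Tbx6 array of day 7 alone. Its change with day was 0.67 (SE 0.39, adjusted p of 0.247 by limma), and its days overlapped. With day as the one term, the change was 1.26 without the PBS array of day 7 (adjusted p of 0.0289 by limma) and 0.07 without the Tbx6 array of day 7 (0.905). It was 0.97 without the PBS array (0.223) and 0.36 without the Tbx6 array (0.663) of day 30.

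Genes called between days included further parts of the loop. Bhlhe41 and Bhlhe40 encode DEC2 and DEC1, E-box repressors driven by the activators, and rose by 2.22 (SE 0.27, adjusted p of 0.000792 by limma) and 1.47 (SE 0.24). The window of Bhlhe41 held an E-box, 153 bases before the start. Usp2, a deubiquitinase with a strong daily rhythm in many organs, rose by 2.44 (SE 0.24, adjusted p of 0.000308 by limma). Hlf, the third PAR bZIP factor, rose by 0.79 (SE 0.24, adjusted p of 0.0448 by limma), beside 3.73 for Dbp. The call of Hlf was lost without any 1 of the arrays (adjusted p of 0.0730 to 0.148), without the filter (0.0826), and with trend and robust (0.0517).

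Nfil3 encodes E4BP4, which represses D-box genes where DBP activates them. It read 6.78 and 7.54 at day 7 and was at background at day 30 (5.45 and 5.58). Like the activators it fell, with a change of at least -1.23 (adjusted p of 0.00305 by limma with deposited readings), and its window held the receptor core AGGTCA within 12 bases of the start. Fbxw11, a ubiquitin ligase subunit that marks PER proteins for breakdown, fell by 0.82 on the log2 scale (SE 0.24, adjusted p of 0.0394 by limma). This call too was lost without any 1 of the arrays (adjusted p of 0.0674 to 0.171) and without the filter (0.0737). The casein kinase genes Csnk1d and Csnk1e, whose products time PER breakdown, changed by -0.64 and -0.72 and were not called (adjusted p of 0.0896 and 0.0596 by limma). With moderation by trend and robust both passed, at 0.0435 and 0.0347. Csnk1e also passed among genes above background on all arrays (0.0432), after centring of each array (0.0461) and with the injection term left out (0.0438).

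A second list held 20 genes known as clock-linked in heart or other organs, of which 18 were measured and 17 tested. Of these 11 were called higher at day 30, 4 lower and 2 were not called, with a median change of 1.97 (1.86 with readings at background raised). Over all genes tested 14.2% were called higher and 12.1% lower, with a median of -0.02. Bdh1 and Klf15, counted among the 11, reached the filter through day 30, on which they were high. Many of these genes are also known for their part in heart growth and metabolism, and the day comparison holds both ages. Kcnip2, the potassium channel subunit that shapes early repolarisation, rose by 2.94 (SE 0.24), and the sarcomere gene Tcap by 3.08 (SE 0.29). Dgat2, which makes triglyceride, rose by 3.96 (SE 0.24, adjusted p of 4.18e-05 by limma), Nampt, which makes NAD, by 2.77 (SE 0.25), and Pik3r1, a subunit of PI3 kinase, by 2.44 (SE 0.24). Bdh1, an enzyme gene of ketone metabolism, was at background at day 7 and rose by at least 3.77.

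Klf15, a transcription factor that links the clock to channels and to fuel use in heart, rose by at least 1.86 from background at day 7. Fbxo32, a ubiquitin ligase subunit of muscle wasting, rose by 2.49 (SE 0.24), and the cell cycle kinase gene Wee1 by 0.99 (SE 0.24). The glucocorticoid-responsive genes Fkbp5 and Tsc22d3 rose by 1.97 (SE 0.25) and 1.59 (SE 0.24). Cdkn1a, a cell cycle inhibitor repressed by REV-ERB alpha, fell by 1.89 (SE 0.26). Lower at day 30 were also the fuel genes Angptl4 (at least -1.49, with 1 reading at background), Pdk4 (-1.40, SE 0.44) and Ucp3 (-1.01, SE 0.24). Pdk4 (adjusted p of 0.0489 by limma) had its 1 low reading after PBS at day 30, and without that array its change was -0.28 (adjusted p of 0.542). Its call was also lost without either array of day 7 (0.189 and 0.205), without the filter (0.0833), under quantile normalisation (0.0609), with trend and robust (0.155) and with the injection term left out (0.139). Ucp3 was not called with the injection term left out (0.0751). Ucp3 and Wee1 were also not called without the PBS array of day 30 (adjusted p of 0.316 and 0.0606) or without the Tbx6 array of day 30 (0.0566 and 0.0765), and Ucp3 not without the Tbx6 array of day 7 (0.251). Kcnh2 and Adipor2 were not called, at -0.42 and 0.49.

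**Figure D4:**
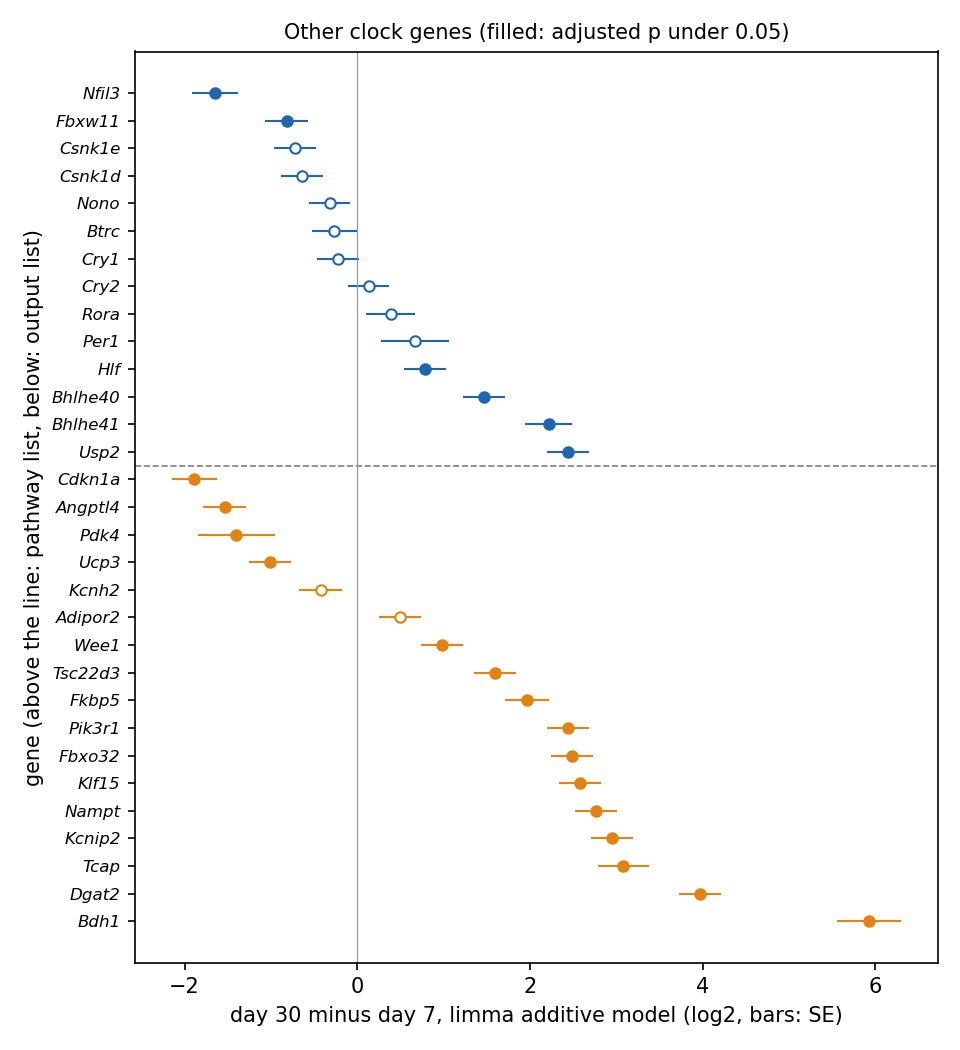
Log2 change from day 7 to day 30 with its standard error (limma) for the tested genes of the pathway list (blue, 14 genes) and the output list (orange, 17 genes), filled where the adjusted p was under 0.05 and fitted on the deposited values, readings at background included. Changes run from Nfil3 (-1.65) to Usp2 (2.44) in the pathway list, and Cry1, Cry2, Rora and Per1 are open symbols.

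Between injections, 0 genes of either list passed the adjusted test. In the pathway list 0 of 14 had an unadjusted p under 0.05. In the output list 4 of 17 did (Klf15, Pdk4, Ucp3 and Fbxo32), beside 4.32% of all genes. Fbxo32 was higher after Tbx6 by 0.69 at day 7 and 0.78 at day 30, and Ucp3 by 0.76 and 0.79. Klf15 was higher by 0.87 at day 30, with both day 7 readings at background, and Pdk4 by 2.23 at day 30 against 0.06 at day 7. Further differences past 1.5-fold within a day, with at least 1 reading above background, were those of Nfil3 (0.76), Btrc (0.74) and Cdkn1a (-0.66) at day 7, of Bdh1 (-1.53) at day 30, and of Per1 on both days.

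The genes whose values over the 4 arrays lay closest to the mean centred profile of each arm were sought among 7878 other genes above background on all arrays. Likeness was the Euclidean distance in log2 units over these 4 arrays. The arm profiles were taken from deposited values, with the readings at background of Arntl, Npas2, Tef and Ciart included. Distances to profiles with those readings raised were not computed. For the repressor and output arm the closest were Gsto1 (0.0623), Hk2 (0.065), Usp2 (0.0936), Pik3r1 (0.119) and Timp4 (0.136). Of these Usp2 and Pik3r1 were also on the lists above. For the activator arm they were Snap91 (0.178), Csrp2 (0.27), Sfrp2 (0.275), Gm10406 (0.29) and Tet1 (0.299). With 4 arrays and 26.3% of all genes called between days, many genes share such a profile.

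Cell type markers differed between days as well. All 7 cardiomyocyte markers were above background on every array, and their summed log2 level was 132 to 133. Actc1, Pln, Myh6, Tnnt2 and Myl2 stood near the highest value of the arrays (19.93), so this sum had little room to move. The sum of the 3 fibroblast markers was 49.6 and 49.5 at day 7 and 42.4 and 42.7 at day 30. Of these, Col1a1 and Col3a1 were lower at day 30 (13.9 and 13.8 against 17.2 on both arrays of day 7 for Col3a1), while Dcn stayed between 18.34 and 18.47. The sum of the 4 endothelial markers was 54.4 and 53.4 at day 7 and 50.6 on both arrays of day 30. Alas2, the 1 erythroid marker measured, read 12.5 and 10.7 at day 7 and 9.24 and 9.82 at day 30. In heart RNA, fewer cells of a type and less RNA per cell cannot be told apart, and the part of these shifts in the clock result was not tested. Adipocyte markers above background numbered 4, 4, 2 and 4 of 5 (PBS and Tbx6 at day 7, then at day 30), with summed levels of 49.4, 41.1, 39.7 and 47.6. Lung epithelial markers numbered 3, 0, 0 and 1 of 6, with summed levels of 42.8, 23.2, 23.2 and 26.7 and Sftpc, Sftpb and Sftpa1 at background throughout. All 3 lymphocyte markers were at background. The PBS array of day 7, which carried the airway genes, was left out in turn with the others, and 9 of 9 clock genes were called between days each time.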

How the data were processed

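Total RNA of heart was labelled as biotinylated single-stranded cDNA and hybridised to mouse Clariom S arrays, per the labels' protocols. The deposited log2 values were made by the authors with SST-RMA in Affymetrix Expression Console 1.4, per the series' design text and the submitters' processing notes. The log base is not stated and was taken as 2 from the values (up to 19.9). An array has no sequencing depth, so precision depends on the number of arrays. Symbols came from the platform annotation (19572 probe sets with 1 symbol, 0 with several). For 55 genes with several probe sets the one with the highest mean was kept, which left 19505 genes, 9753 of them at or above the median mean of 5.30. Both factors were fitted with limma 3.58.1 in R 4.3.3 (injection and day as terms, lmFit and eBayes, two-sided, Benjamini-Hochberg over the 9753 genes, threshold 0.05). The variance is borrowed largely from other genes, so an SE is not the measured spread of its gene. Arrays of the 2 injections stand in as replicates of a day, and those of the 2 days as replicates of an injection. The 1 residual degree of freedom measures how far the day difference differs between the injections. Separate animals are not stated behind the arrays, so p-values measure no spread between replicate hearts. The words rose and fell mark genes past this test. Readings not above the highest background probe set of the array give bounds ("at least"), computed with those readings raised to it.

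The 10 genes, both lists and the cell type markers were chosen with earlier results of these data known. Named were all 10 genes, listed genes past a test or at least 1.5-fold apart within a day, a few core clock genes (Per1, Cry1, Cry2, Rora, Hlf and Nfil3 among them) whatever their values, and the 5 nearest profiles per arm. The model was tested on simulated data among 9753 genes, with 100 genes changed at each size. Noise was drawn independently per array, with each gene's spread taken from the same fit. The simulation therefore shares the model's assumptions and cannot test them. For day it recovered 67% of changes of 1 and 100% of changes of 2 log2 units, with 12 unchanged genes called. For injection it recovered 66% and 100%, with 31 unchanged genes called. Alternatives were the filter, 2 normalisations, the variance moderation, the model terms, the size rule and, added after seeing the data, each array left out. Figures were drawn with matplotlib 3.10.9 in Python 3.11.15.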

Additional observations from a re-analysis of the deposited data

Results flagged for a closer look

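Per1 differed between injections by -1.19 at day 7 and by 0.61 at day 30 (Tbx6 minus PBS, log2), past 1.5-fold on both days and in opposite directions. The difference between the days was not tested, since each day has 1 array per injection, and such opposite pairs were found for 1.56% of the 9753 genes. None of the 10 clock genes met this rule.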

How the results depend on the processing

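Between days, the 9 tested clock genes were called in the same direction under quantile normalisation, centring of each array, moderation with trend and robust, and with the injection term left out. Restricting to genes above background on all arrays left 6 clock genes, all 6 called. Leaving out each array in turn, with day as the one term and the spread of a lone array assumed to be that of the others, gave 9 calls each time, while calls over all genes fell to 1402 without the PBS array and 1248 without the Tbx6 array of day 30, from 2562. Between injections 0 were called in each of these settings. At 2-fold, 0 clock genes were apart at day 7 and 0 at day 30. With readings raised to background the count at day 30 was 1. Both Arntl readings of that day then equal the highest background probe set of their array (6.05 for PBS and 5.82 for Tbx6). By construction these lie less than 1.5-fold apart. The shift of the arm index from day 7 to day 30 was -4.69, and -3.67 with readings raised to background and -3.76 with medians in place of means. No paired analysis was possible because the labels carry no replicate numbers and each group has 1 array. Low signal limits Arntl, Npas2 and Nfil3 at day 30, Ciart at day 7 and Tef on all arrays.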
